A study of Mus musculus with 9 samples.

Results

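Immune checkpoints are pairs of surface proteins through which an antigen-presenting or target cell restrains or boosts a lymphocyte. The genes described here are 5 checkpoint receptors, Pdcd1, Ctla4, Lag3, Havcr2 and Tigit, and 5 ligands, Cd274, Pdcd1lg2, Cd80, Cd86 and Lgals9. They were taken by name, with no threshold on their values, from the 27998 genes of the count table, and all 10 were present in it. Each was read in every library and in cell classes set by marker genes that did not include any of the 10.

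The liver is a tissue in which antigen from the gut and from blood is met under strong restraint, and checkpoint ligands on its macrophages and sinusoidal endothelium are part of that restraint. PD-1, the protein of Pdcd1, is bound by PD-L1 (Cd274) and PD-L2 (Pdcd1lg2), and lowers signalling from the antigen receptor. CTLA-4 (Ctla4) competes with the activating receptor CD28 for the shared ligands CD80 and CD86, LAG-3 (Lag3) binds MHC class II, TIM-3 (Havcr2) has galectin-9 (Lgals9) among its ligands, and TIGIT (Tigit) binds the poliovirus receptor family.

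The libraries were droplet single-cell RNA-seq of liver cells freed with collagenase from C57BL/6 mice, and the study asked how the cells around the hepatocytes differ once YAP, a growth-promoting transcriptional co-activator, is switched on. All mice carried ROSA26-rtTA-IRES-EGFP and received doxycycline in the food. WT mice had no YAP transgene and were fed doxycycline for 7 days (n = 2 libraries), YAP3d mice carried tetYAP and were fed for 3 days (n = 4), and YAP7d mice carried tetYAP and were fed for 7 days (n = 3). Per the study's methods the mice also came from crosses with Alb-CRE mice, whose albumin promoter is, as background, active mainly in hepatocytes. In which cells the transgene was expressed was not measured here. No source used here gives the age or sex of the mice or says whether 1 library is 1 mouse, so p-values measure the spread between these libraries only. There was also no group with the transgene and no doxycycline.

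After removal of 35 cells with fewer than 200 genes, 8527 cells remained, 281 to 2551 per library, with 1314878 to 25056881 unique molecular identifiers (UMIs, 1 per captured molecule) per library and a median of 3190.5 to 11471.5 UMIs per cell. Only 115 cells were hepatocyte-like by their markers, 3 of them from WT mice, so the libraries held mainly the other cells of the liver and did not measure hepatocytes of WT mice. The targeted gene checked the labels poorly: Yap1 UMIs in hepatocyte-like cells numbered 1 and 0 in the WT libraries, between 1 and 6 in the YAP3d libraries and between 11 and 19 in the YAP7d libraries. Across all cells Yap1 was not higher with the transgene. Gm42418 was at 241 to 382 CPM (UMI counts scaled to the same library total) in WT 2, YAP3d 4 and YAP7d 3, and at 3676 to 17343 CPM in the other 6 libraries. Gm10709 was at 340 to 611 CPM in YAP3d 1, YAP3d 2 and all 3 YAP7d libraries and at no more than 11.2 CPM elsewhere. Each group thus held a library low in Gm42418, whereas Gm10709 separated YAP7d from WT. Libraries are numbered below by group, as WT 1 or YAP3d 4, and 46 cell barcodes occurred in more than 1 library.

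The members differed widely in how much could be measured. Lgals9 gave 7942 UMIs in 3742 cells, Cd86 4599 UMIs in 1968 cells and Cd274 1199 UMIs in 906 cells. Havcr2 gave 968 UMIs, Lag3 937, Ctla4 483, Pdcd1lg2 448 and Cd80 325. Pdcd1 was read in 98 of 8527 cells, with 158 UMIs, and Tigit in 32 cells, with 33 UMIs. A UMI in this chemistry marks the 3′ end of a transcript, so a level does not scale with transcript length. Even so, values are compared here between cells and groups for the same gene, and not between genes.

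Cd274 and Pdcd1lg2 are neighbours on mouse chromosome 19 and their products share a receptor, and Lgals9 was the only member read at over 40 CPM in each of 12 cell classes with their cells pooled. The 250 bases before the RefSeq start sites of these genes (assembly GRCm38.p6) are shown because the 3 genes had quite different cell distributions below. The Cd274 sequence is chr19:29367188-29367437 on the plus strand, where the start site used lies inside the annotated gene (chr19:29362107-29388095). The Pdcd1lg2 sequence is chr19:29410669-29410918, also on the plus strand, directly before the gene at chr19:29410919-29472927, which begins 22824 bases beyond the end of Cd274. The Lgals9 sequence is chr11:78984925-78985174 on the minus strand, before the gene at chr11:78962979-78984924. Capitals mark a match to an interferon-stimulated response element core.
Cd274: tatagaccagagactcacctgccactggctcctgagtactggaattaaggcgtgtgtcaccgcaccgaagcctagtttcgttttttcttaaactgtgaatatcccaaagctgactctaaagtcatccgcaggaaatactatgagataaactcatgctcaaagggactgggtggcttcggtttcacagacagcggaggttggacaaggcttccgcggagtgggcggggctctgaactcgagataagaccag
Pdcd1lg2: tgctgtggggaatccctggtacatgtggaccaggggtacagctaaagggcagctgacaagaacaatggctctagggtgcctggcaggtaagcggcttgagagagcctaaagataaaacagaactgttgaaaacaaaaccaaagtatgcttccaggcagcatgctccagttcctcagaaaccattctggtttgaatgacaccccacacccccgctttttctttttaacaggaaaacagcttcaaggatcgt
Lgals9: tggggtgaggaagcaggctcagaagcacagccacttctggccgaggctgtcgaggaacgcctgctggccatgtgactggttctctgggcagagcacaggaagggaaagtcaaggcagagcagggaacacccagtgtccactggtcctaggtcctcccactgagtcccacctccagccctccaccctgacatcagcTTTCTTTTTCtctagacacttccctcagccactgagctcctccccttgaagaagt

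Motifs tied by textbook knowledge to immune signalling were searched on both strands of the promoters of the 8 members that had one in the reference. The interferon-stimulated response element core, which is GAAA repeated after any 2 bases, was matched in Lgals9 alone, as TTTCTTTTTC at -55 from the start site, and it occurs in 2.98% of 32851 promoters of the same length. The STAT motif TTCNNNGAA (7.02% of promoters) had no match among the 8. The AP-1 motif TGANTCA (6.75%) was matched in Havcr2 at -200 and in Cd80 at -42, and the loose NF-kappaB motif, GGG and CC with any 5 bases between them (45.8%), in Pdcd1lg2, Cd80 and Lgals9. These are matches of letters in a window and not measured sites.

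Each gene had its own distribution over the cell classes, whose order is given over the 12 classes with at least 50 cells. Pdcd1 was read mainly in T-cell-like cells, which held 136 of its 158 UMIs: 79 of 1748 such cells had a Pdcd1 UMI, or 4.52% (95% Clopper-Pearson interval 3.59 to 5.60). B-cell-like cells, at a median of 3230 UMIs per cell against 4767.5 in T-cell-like cells, had Pdcd1 in 0 of 1168, which allows a share of up to 0.257%, and endothelial-like cells in 0 of 1946, which allows up to 0.154%. These limits, set at 3 counts of the total, concern cells with a UMI and not cells that express the gene, and limits and intervals cover counting error only. With every cell thinned to 2000 UMIs, Pdcd1 was read in 2.06% of T-cell-like cells.

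**Figure D1:**
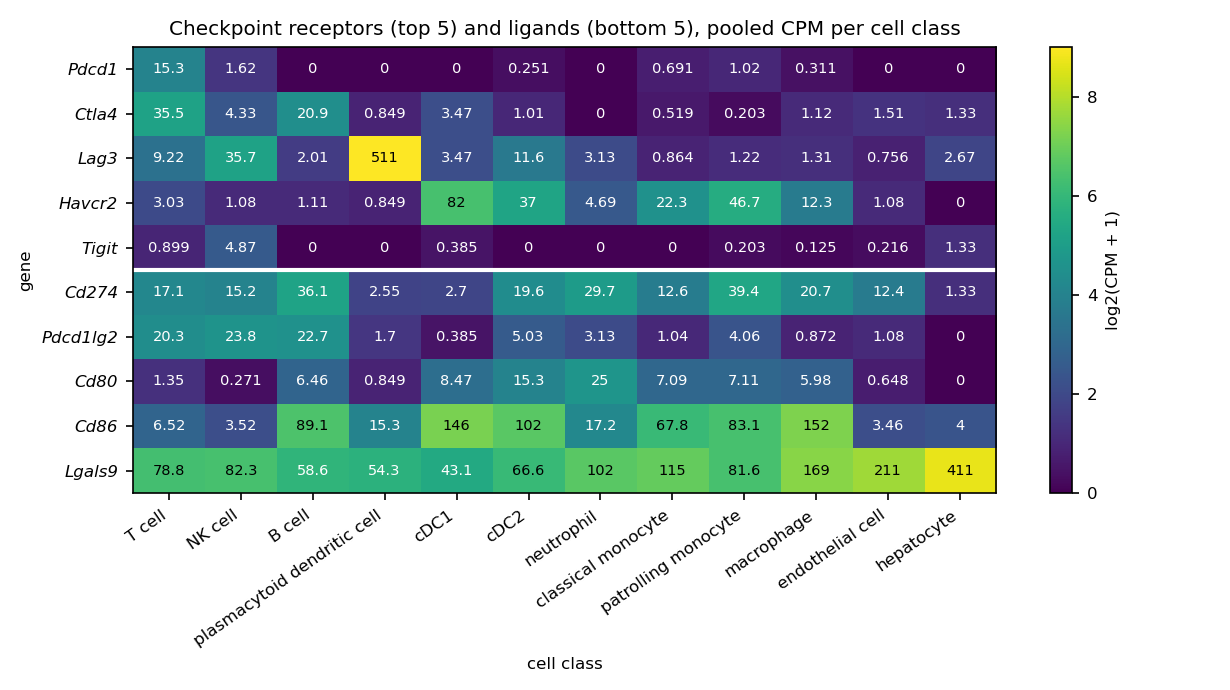
Levels of the 10 checkpoint genes (rows, receptors above and ligands below) in 12 cell classes (columns). Printed numbers are CPM over all cells of a class pooled, and colour is log2(CPM + 1): Lag3 reached 511 CPM in plasmacytoid-dendritic-cell-like cells, Lgals9 was above 40 CPM in every class, and Pdcd1lg2 was above 20 CPM only in the NK, B and T columns.

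Ctla4 was also highest in T-cell-like cells, at 29.7 ± 12.9 CPM (mean ± SD over 9 libraries), with a UMI in 9.73% of them. The next class was the B-cell-like cells, at 11.8 ± 19.9 CPM and 3.08% of cells, a mean that does not differ from the first beyond the spread between libraries. Among all T-cell-like cells, the 170 with a Ctla4 UMI also had Foxp3, the master factor of regulatory T cells, in 7.06%, against 0.127% of those without. Icos, a costimulatory receptor of activated T cells, was read in 64.7% and 41.0% of these cells. Within the T-cell-like cells, Ctla4 led a subcluster of 134 cells together with Tnfrsf4, Ccr10 and Gzmk, where it stood at 165 CPM.

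Lag3 had its highest level in plasmacytoid-dendritic-cell-like cells, a class of interferon-producing cells, and not in lymphocytes. These 151 cells held 602 of the 937 Lag3 UMIs. Their level was 574 ± 150 CPM over the 4 libraries with at least 10 such cells, at 608 in WT 2, 373 in YAP3d 4, 735 in YAP7d 1 and 581 in YAP7d 3. A Lag3 UMI was read in 130 of the 151 (86.1%, interval 79.5 to 91.2), and still in 57.0% after thinning to 2000 UMIs. NK-cell-like cells came next at 50.4 ± 29.1 CPM over 9 libraries and 16.4% of 567 cells. T-cell-like cells had Lag3 in 2.75% and endothelial-like cells, which should lack it, in 0.360% at a similar median depth of 4366.5 UMIs.

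Havcr2, known on exhausted T cells but also on myeloid cells, was read mainly in myeloid cells in these livers. Conventional type 1 dendritic-cell-like (cDC1-like) cells held 85.8 ± 20.5 CPM over 4 libraries, with a UMI in 60.9% of 156 cells (14.6% after thinning to 2000 UMIs, since these cells were the deepest at a median of 16541.5 UMIs). Patrolling-monocyte-like cells at 74.3 ± 39.5 CPM (n = 6) and cDC2-like cells at 59.8 ± 40.0 CPM (n = 8) did not differ from them beyond their spread. Classical-monocyte-like cells followed at 28.4 ± 18.8 CPM and macrophage-like cells at 9.83 ± 7.68 CPM. T-cell-like cells stood at 2.88 ± 3.15 CPM, with Havcr2 in 1.2% of cells. The subcluster of 134 cells led by Tnfrsf4 and Ctla4 held 17 Havcr2 UMIs, at 16.6 CPM pooled, against 12.3 CPM pooled in macrophage-like cells. Tigit was close to its detection limit everywhere: NK-cell-like cells held 18 of its 33 UMIs, in 3.00% of cells at 4.53 ± 4.17 CPM, and T-cell-like cells held 8.

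Of the ligands, Cd86 was found across the antigen-presenting cells. Macrophage-like cells were at 173 ± 39.1 CPM over 9 libraries, cDC1-like cells at 152 ± 36.9 (n = 4), cDC2-like cells at 104 ± 47.2 (n = 8) and B-cell-like cells at 88.6 ± 19.9 (n = 9), so each neighbour in this order lay within the spread of the next. It was read in 72.1% of macrophage-like cells and in 3.03% of T-cell-like cells. Cd80, which binds CD28 and CTLA-4 more tightly than CD86 does, was sparse. Its levels were 29.4 ± 11.9 CPM in neutrophil-like cells (n = 4), 22.3 ± 11.6 in cDC2-like cells (n = 8), 13.2 ± 6.5 in patrolling-monocyte-like cells (n = 6) and 12.1 ± 9.20 in macrophage-like cells (n = 9), an order whose neighbours again overlapped.

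The PD-1 ligands were distributed differently from each other. Cd274 was spread over most classes, from 7.58 ± 5.09 CPM in classical-monocyte-like cells (n = 6) and 10.1 ± 6.6 in endothelial-like cells (n = 9) to 47.6 ± 37.0 CPM in neutrophil-like cells (n = 4), with patrolling-monocyte-like cells at 33.1 ± 16.8 (n = 6) and B-cell-like cells at 29.4 ± 14.0 (n = 9) between them. It was low in cDC1-like cells, with 7 UMIs, in plasmacytoid-dendritic-cell-like cells, with 3, and in hepatocyte-like cells, with 1. Pdcd1lg2 was a lymphocyte gene here, at 26.9 ± 15.6 CPM in NK-cell-like, 23.7 ± 10.6 in B-cell-like and 19.7 ± 6.56 in T-cell-like cells, means that did not differ beyond their spread. It was uneven among the subclusters of the T- and NK-cell-like cells. Outside the NK-cell-like subclusters its UMIs were mainly in a subcluster led by Lyst, Pak6 and Csf2 (52 UMIs in 310 cells, 37.1 CPM pooled) and in one led by Il4 and Art2b (101 UMIs in 444 cells, 45.4 CPM pooled). These 2 subclusters were split by library and are not shown to be different cell types: WT 2, YAP3d 4 and YAP7d 3, the libraries low in Gm42418, held 141, 253 and 41 cells of the second and 18, 2 and 1 of the first. The larger of the CD4-T-cell-like subclusters held 1 UMI in 269 cells and the resting-CD8-T-cell-like subcluster 7 in 358. Dendritic cells and macrophages, its best known sources, were lower: cDC2-like cells stood at 4.03 ± 5.99 CPM and macrophage-like cells at 0.674 ± 0.799 CPM, although the latter had the deeper cells (median 13146 against 5108 UMIs in NK-cell-like cells).

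Lgals9 was read in every class. Hepatocyte-like cells were highest at 392 ± 89.2 CPM over 6 libraries, none of them WT, and endothelial-like cells followed at 202 ± 53.1 CPM and macrophage-like cells at 150 ± 41.6 CPM over 9 libraries each. The first step exceeded the spread between libraries and the second did not. The lowest class, cDC1-like cells, was at 38.6 ± 23.0 CPM.

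Over the 12 classes, the genes with the pattern most like a member's were found by Pearson's r of log2(CPM + 1). These points share libraries and depth, so r is a description. Pdcd1lg2 ran closest to Stat4 (r = 0.954) and Ikzf3 (0.95), Pdcd1 to Tnfrsf25 (0.937), Lag3 to Slco4a1 (0.934), Havcr2 to Tmem150b (0.947), Cd86 to Gm6377 (0.941), Lgals9 to Glul (0.943), Cd80 to Mcl1 (0.936), Ctla4 to Apobec2 (0.918) and Cd274 to Fam53c (0.916). No member was among the 3 nearest genes of another.

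To ask whether YAP induction went with altered checkpoint genes in the surrounding cells, UMIs were summed per library within each class and compared between groups with edgeR's quasi-likelihood test, adjusted by Benjamini-Hochberg over all genes of that class. In B-cell-like, T-cell-like, NK-cell-like, endothelial-like and macrophage-like cells, 15 gene and class pairs of the members had enough counts for the test, none of them of Pdcd1, Havcr2 or Tigit. Of the 15, 1 was called between YAP7d and WT, 0 between YAP3d and WT and 1 between YAP7d and YAP3d, and both calls were Lag3 in NK-cell-like cells. At an unadjusted p below 0.05 the counts were 2, 1 and 2, and DESeq2 called 0, 0 and 1. Of all genes tested by edgeR between YAP7d and WT, 7.73% were called in NK-cell-like and 18.3% in endothelial-like cells. The share was 1.48% in macrophage-like, 0.0449% in B-cell-like and 0% in T-cell-like cells. Between YAP7d and YAP3d these shares were 14.3%, 17.1%, 0.378%, 0% and 0.965%, and between YAP3d and WT 0% in each class. For members that did not enter that test, because the gene was too sparse or the class had too few cells in too many libraries, 88 exact permutation tests on CPM were run across classes and comparisons. Their groups did not overlap in 8 of the 88. The share of all genes without overlap is not given here, so this count is not a result about the members. Of the 88, 2 had a p below 0.05 before any correction for this number. Only tests of 3 YAP7d against 4 YAP3d libraries could reach such a p (smallest possible exact p = 0.0286), since the smallest possible in the others was 0.0667 or 0.1.

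Lag3 was lower in NK-cell-like cells after 7 days of YAP. Its level was 74.8 and 76.5 CPM in the WT libraries, 93.1, 52.3, 48.8 and 59.6 in YAP3d 1 to 4, and 20.7, 9.08 and 19.1 in YAP7d 1 to 3. Every YAP7d library lay below every other library, while WT and YAP3d overlapped. The log2 fold change was -1.95 ± 0.40 (SE) for YAP7d against WT (edgeR adjusted p = 0.00942) and -1.63 ± 0.36 for YAP7d against YAP3d (edgeR adjusted p = 0.00680). It was -0.32 for YAP3d against WT (edgeR adjusted p = 1.0). Among all 4154 genes tested in these cells, 7.73% were called between YAP7d and WT, 0% between YAP3d and WT and 14.3% between YAP7d and YAP3d, so many other genes differed beside Lag3. The counts behind these values were small, 8 and 28 Lag3 UMIs in WT, 3 to 29 in YAP3d and 14, 2 and 28 in YAP7d, from 18 to 142 cells. The YAP7d against WT call was lost without WT 2 (edgeR adjusted p = 0.160) and with a Gm10709 term (0.326), and DESeq2 gave this gene no adjusted p there.

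**Figure D2:**
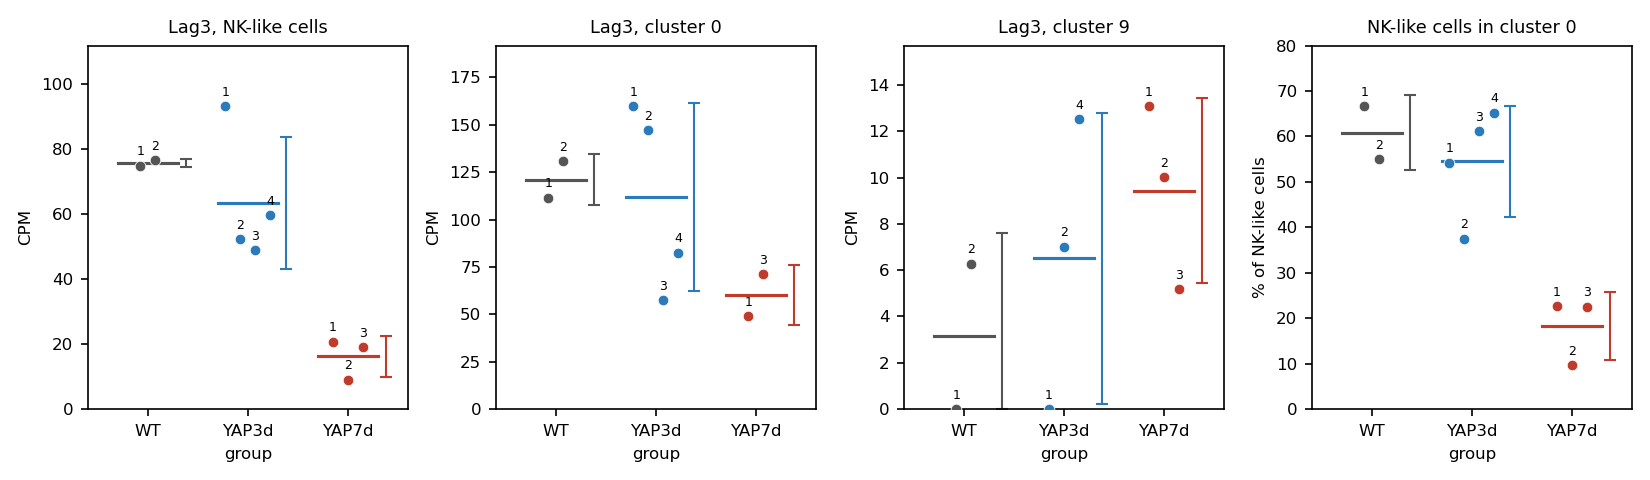
Lag3 in NK-cell-like cells by library. The first 3 panels give CPM on a linear axis in all NK-cell-like cells, in cluster 0 and in cluster 9, and the last the percent of NK-cell-like cells in cluster 0; points are libraries numbered by replicate, lines are group means and bars SD, and libraries with fewer than 10 cells of a cluster are left out. Both the Lag3 level and the share of cluster 0 are lower in all 3 YAP7d libraries.

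The make-up of the NK-cell-like cells moved together with Lag3. They fell into cluster 0 (234 cells, led by Ncr1, Gzmc and Xcl1) and cluster 9 (333 cells, led by Klra4 and Klra8, receptors of NK cells). Lag3 was at 90.6 CPM in the first and 8.14 CPM in the second. Cluster 0 held 66.7% and 55.0% of the NK-cell-like cells in WT, 37.5% to 65.3% in YAP3d and 22.6%, 9.68% and 22.5% in YAP7d. In cluster 0 alone Lag3 was at 112 and 131 CPM in WT, 57.5 to 160 in YAP3d, and 49.0 and 71.2 in the 2 YAP7d libraries with at least 10 such cells. Those YAP7d values lay below both WT values and overlapped YAP3d, and the log2 fold change against WT was -0.86 ± 0.46 with an edgeR adjusted p of 0.337. In cluster 9, on 0 to 7 Lag3 UMIs per library, it was at 0 and 6.28 CPM in WT, 0, 7.02 and 12.5 in the 3 YAP3d libraries with at least 10 cells, and 13.1, 10.02 and 5.18 in YAP7d, so that YAP7d was not lower there. Lag3 was too sparse in cluster 9 for the count test. Within the whole class, cells with a Lag3 UMI (93 of 567) and those without had nearly the same median depth, 5255 and 5066 UMIs. The chemokine receptor Cxcr6 was read in 58.1% of the former and 20.5% of the latter, the integrin Itga1 in 25.8% and 7.17%, and Klra8 in 12.9% and 39.2%.

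Summed marker levels in the NK-cell-like cells are given beside this result, and their part in it was not tested. The 9 ILC1 markers summed to 2613 to 3983 CPM in WT, 2146 to 3103 in YAP3d and 1103 to 2089 in YAP7d. The 12 T-cell markers summed to 1427 to 1636, 1164 to 2048 and 99.9 to 395 CPM, with Themis and Cd8b1 at 0 in WT. The 8 dissociation and heat-shock genes summed to 5778 to 7492, 4173 to 6081 and 1793 to 2421 CPM. All 3 sums were lower in YAP7d. The 12 NK-cell markers overlapped between the groups, at 14473 to 15494, 12859 to 16729 and 12469 to 15782 CPM. Among the libraries high in Gm42418 Lag3 averaged 74.8 CPM in WT, 64.7 in YAP3d and 14.9 in YAP7d, and in those low in it 76.5, 59.6 and 19.1 CPM. After thinning each cell to 2000 UMIs, Lag3 was read in 8.82% of WT, 10.1% of YAP3d and 2.72% of YAP7d NK-cell-like cells, against 21.8%, 18.0% and 12.8% unthinned.

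Of 11 other coinhibitory receptors, 7 were tested in these cells between YAP7d and WT, and 3 were lower, 0 higher and 4 not called, beside 7.73% of all genes called, with a median log2 fold change of -1.04 against -0.03 over all genes. They were Cd160, a receptor for HVEM, at 153 ± 40.3 CPM (n = 3) against 515 ± 105 (n = 2; -1.65 ± 0.25, edgeR adjusted p = 0.00108), Vsir, which encodes VISTA (-2.20 ± 0.36, 0.00152), and Cd200r1, the receptor of the restraining ligand CD200 (-2.17, 0.0414). Costimulatory receptors had 2 of 6 lower, Cd27 (-1.24) and Cd226 (-1.11), the latter a rival of Tigit for the same ligands. Of 9 interferon-gamma pathway genes 1 was lower, the transcription factor Irf1 (-1.17, edgeR adjusted p = 0.0273). The 13 genes of T-cell exhaustion and activation that were tested had a median of -0.33.

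The other members in NK-cell-like cells gave no call. Pdcd1lg2 was at 46.7 and 32.8 CPM in WT, 51.7, 28.5, 0 and 18.5 in YAP3d and 17.7, 22.7 and 23.2 in YAP7d, with YAP7d below WT and inside the YAP3d range (-0.71 against WT, edgeR adjusted p = 0.556). Tigit was at 0 and 2.73 CPM in WT, 10.3, 9.51, 0 and 8.22 in YAP3d and 5.90, 0 and 4.09 in YAP7d, which overlapped in each comparison (exact permutation p = 0.5, 0.333 and 0.343 for YAP7d against WT, YAP3d against WT and YAP7d against YAP3d).

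In T-cell-like cells no member was called in any comparison, and 1 library carried 68 of the 136 Pdcd1 UMIs. Pdcd1 was at 6.82 and 7.21 CPM in WT, 5.26, 118, 4.17 and 7.91 in YAP3d and 9.89, 6.80 and 11.4 in YAP7d, so that YAP3d 2 stood alone and the other 8 libraries lay between 4.17 and 11.4 CPM. The means were 7.02 ± 0.271 (SD) in WT, 33.8 ± 56.0 in YAP3d and 9.35 ± 2.32 in YAP7d, with exact permutation p = 0.4 for YAP7d against WT, 0.867 for YAP3d against WT and 0.971 for YAP7d against YAP3d. Lag3 had a like shape, at 2.27 and 3.00 CPM in WT, 2.63, 67.5, 25.0 and 3.60 in YAP3d and 3.3, 3.4 and 6.57 in YAP7d. Its log2 fold change for YAP3d against WT was 2.89 ± 1.18 (edgeR adjusted p = 1.0) and for YAP7d against YAP3d -1.97 ± 0.95 (edgeR adjusted p = 0.371). With no filter on low counts the fit kept Pdcd1 and called both genes in the comparisons with YAP3d, Pdcd1 at 2.08 for YAP3d against WT (edgeR adjusted p = 0.0260) and Lag3 at 2.87 (0.0179). Of 6531 genes tested in T-cell-like cells, 0% were called by edgeR between YAP7d and WT (553 at an unadjusted p below 0.05), 0% between YAP3d and WT (95) and 0.965% between YAP7d and YAP3d.

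**Figure D3:**
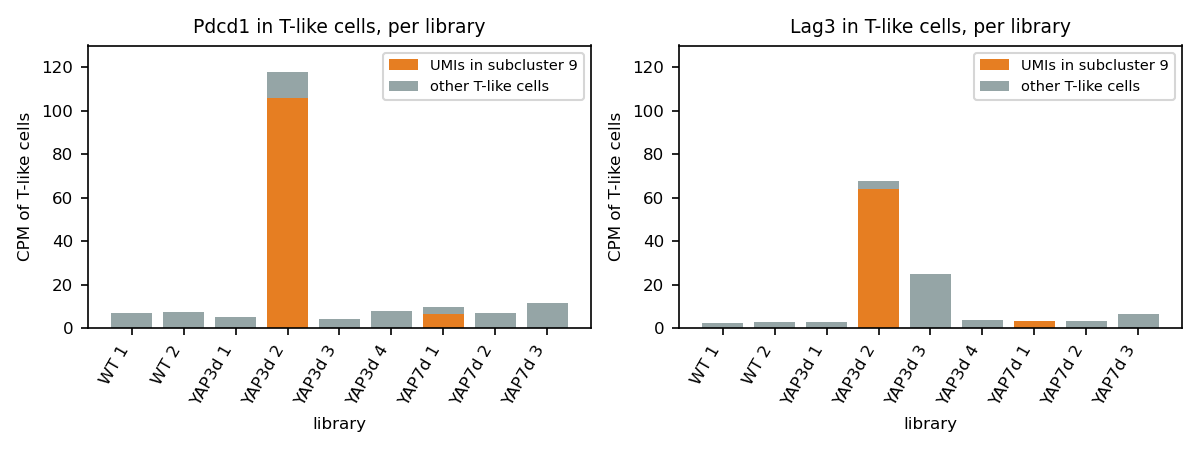
Pdcd1 (left) and Lag3 (right) in T-cell-like cells of each of the 9 libraries, as CPM on a linear axis from 0. The orange part of a bar is the share from subcluster 9: in YAP3d 2 most of the 118 CPM of Pdcd1 comes from it, while the other libraries stay between 4.17 and 11.4 CPM.

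Most of the Pdcd1 of YAP3d 2 sat in a small subcluster. Of its 68 Pdcd1 UMIs in T-cell-like cells 61 fell in subcluster 9, which had 61 cells in all libraries, 26 of them from YAP3d 2 and 17, 8 and 5 from YAP7d 1 to 3, and was led, over all its cells, by the proliferation genes Hist1h1b, Mki67, Cenpf and Top2a with Gzmk, a granule protease, and Pdcd1 itself. Pdcd1 stood at 462 CPM and Lag3 at 280 CPM in the YAP3d 2 cells of that subcluster. In YAP3d 2, 23 of 117 T-cell-like cells had a Pdcd1 UMI, and of these 78.3% had Cd8a, 0% Cd4, 69.6% Lag3, 21.7% Havcr2 and 69.6% Tox, a factor of exhausted T cells. The T-cell-like cells of this library without Pdcd1 had Cd8a in 24.5%, Lag3 in 4.26% and Tox in 22.3%. In the other libraries, 56 of 1631 had Pdcd1, with Cd8a in 28.6%, Cd4 in 32.1%, Lag3 in 16.1%, Ctla4 in 26.8% and Tox in 33.9% of them. Mki67 was read in 5 of the 23 cells with Pdcd1 in YAP3d 2 and in 6 of the 56 elsewhere. In the T-cell-like cells of YAP3d 2 the effector and memory CD8 markers summed to 16244 CPM (3780 to 7177 elsewhere) and the NK-cell markers to 4823 CPM (361 to 785 elsewhere). The proliferation genes summed to 339 CPM there, against 18.4 to 240 in the other YAP3d libraries and 543 to 1000 in YAP7d. Their part in the Pdcd1 and Lag3 values was not tested.

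Ctla4 in T-cell-like cells was at 40.9 and 45.6 CPM in WT, 13.2, 26, 27.1 and 39.6 in YAP3d and 8.24, 27.2 and 39.4 in YAP7d. Both WT values lay above the 7 others, but the log2 fold change for YAP7d against WT was -0.59 with an edgeR adjusted p of 0.821. Pdcd1lg2 in these cells was at 22.7 and 25.2 CPM in WT, 13.9 to 28.9 in YAP3d and 24.7, 10.2 and 12.5 in YAP7d, and Cd274 at 9.1 and 15, 13.2 to 27.1 and 10.2 to 18.1 CPM, all with overlapping groups. Of 10 tested costimulatory receptors 1 was called in T-cell-like cells, Cd27, which binds CD70 and favours memory, at -0.88 between YAP7d and YAP3d (edgeR adjusted p = 0.0488).

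In B-cell-like cells Ctla4 varied strongly between libraries, and it followed the Gm42418 level of the library. Ctla4 UMIs numbered 26 in WT 2, 50 in YAP3d 4 and 18 in YAP7d 3, at 32.8, 19.0 and 54.7 CPM, and 0 in the 6 other libraries, where the limit of 3 counts lies at 19.96 to 27.6 CPM per library. Those 3 are the libraries low in Gm42418, 1 of each group. They had Ctla4 in 36 of 933 B-cell-like cells (3.86%, interval 2.72 to 5.30), and the other libraries in 0 of 235, which allows a share of up to 1.28%. For comparison, Ms4a1, which encodes the B-cell marker CD20, was at 922 CPM in the first set and 1056 CPM in the second, Pdcd1lg2 at 22.4 and 24.3 CPM, Cd274 at 38.2 and 25.6 CPM (in 11.4% and 6.38% of cells), and Ctla4 in T-cell-like cells at 41.2 and 23.0 CPM. The B-cell-like cells with Ctla4 had a median of 9383 UMIs against 3203 in those without, and Cd80 in 25.0% against 1.24%, Cd3d in 25.0% against 7.51% and Ms4a1 in 94.4% against 89.5%. None of the 36 was called a doublet. What the 2 sets of libraries are is not given by the labels, and its part in the Ctla4 values was not tested.

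Pdcd1lg2 in B-cell-like cells was at 32.2 and 32.8 CPM in WT, 35.4, 36.5, 14.7 and 20.6 in YAP3d and 9.2, 19.96 and 12.1 in YAP7d. All YAP7d values were below both WT values, 13.8 ± 5.56 against 32.5 ± 0.482 CPM (exact permutation p = 0.1, the smallest that 3 against 2 libraries allow), and overlapped YAP3d (exact permutation p = 0.143). The limit of 3 counts lies at 27.6, 19.96 and 9.11 CPM in YAP7d 1 to 3 and at 24.1 CPM in WT 1. These values thus rest on few UMIs, and the SD of WT does not measure their counting error. Cd86 was at 121 and 85.9 CPM in WT and 120, 79.8 and 79.0 in YAP7d, a log2 fold change of -0.11 (edgeR adjusted p = 0.998). Among 2229 genes tested in B-cell-like cells 0.0449% were called between YAP7d and WT and 0% in the other 2 comparisons (edgeR; 20 genes for YAP3d against WT and 147 for YAP7d against YAP3d at an unadjusted p below 0.05).

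In endothelial-like cells Cd274 was lowest after 7 days of YAP. Its level was 15.4 and 19.4 CPM in WT, 17.3, 9.23, 10.7 and 10.8 in YAP3d and 4.52, 0 and 3.34 in YAP7d. The YAP7d group, at 2.62 ± 2.34 CPM, overlapped neither WT (17.4 ± 2.88; exact permutation p = 0.1, the smallest possible) nor YAP3d (12.04 ± 3.61; exact permutation p = 0.0286, the smallest possible), and WT and YAP3d did overlap (exact permutation p = 0.267). The YAP7d values rest on 1, 0 and 3 UMIs in 24, 23 and 64 cells, against 13 and 45 UMIs in 276 and 502 WT cells. In YAP7d 1 and YAP7d 2 the limit of 3 counts lies at 13.5 CPM, so these libraries do not exclude the levels of YAP3d 2 to 4. Cd274 was too sparse for the count test at the filter used. In each of the 6 alternative fits that kept the gene it was called lower in YAP7d than in WT, with edgeR adjusted p between 0.0109 and 0.0394. These fits reuse the same libraries and the same few UMIs, so their number adds no support. The background is high, since 18.3% of 7464 genes tested in endothelial-like cells were called between YAP7d and WT and 17.1% between YAP7d and YAP3d, and 0% between YAP3d and WT (edgeR; 140 genes at an unadjusted p below 0.05).

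Interferon-gamma is, as background, a known inducer of Cd274. Of 10 genes of its pathway tested in these cells 5 were lower between YAP7d and WT, 0 higher and 5 not called, beside 18.3% of all genes called, with a median log2 fold change of -0.85 against -0.04 over all genes. They were the chemokine Cxcl9 (-1.37, edgeR adjusted p = 0.000996), the feedback inhibitor Socs1 (-1.2), the transcription factors Irf1 (-1.13, 0.00107) and Irf9 (-1.04), and the kinase Jak1 (-0.73). Other checkpoint ligands moved both ways, with 3 of 9 higher (Lgals3 by 2.42, Pvr by 1.2 and Sirpa by 0.73) and 3 lower (Clec4g, a sinusoidal lectin, at -2.13, Ceacam1 at -0.93 and Cd47 at -0.72). Lgals9 itself was at 164 and 261 CPM in WT, 156 to 258 in YAP3d and 266, 117 and 223 in YAP7d, with full overlap (-0.03, edgeR adjusted p = 0.970).

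The endothelial-like cells of YAP7d were a different mix from those of the other groups, and its part in the Cd274 values was not tested. Of the YAP7d cells 82.9% fell in cluster 22, whereas WT and YAP3d cells lay mostly in clusters 6 and 14. The 14 endothelial markers summed to 18516 to 19550 CPM in WT, 16732 to 19069 in YAP3d and 9984 to 10175 in YAP7d, and the patrolling-monocyte markers to 1228 to 1271, 920 to 1211 and 2890 to 3863 CPM. Dissociation genes were at 1998 to 2141 CPM in YAP7d against 6290 to 8797 in WT, and proliferation genes at 464 to 795 against 26 to 44.5 CPM.

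**Figure D4:**
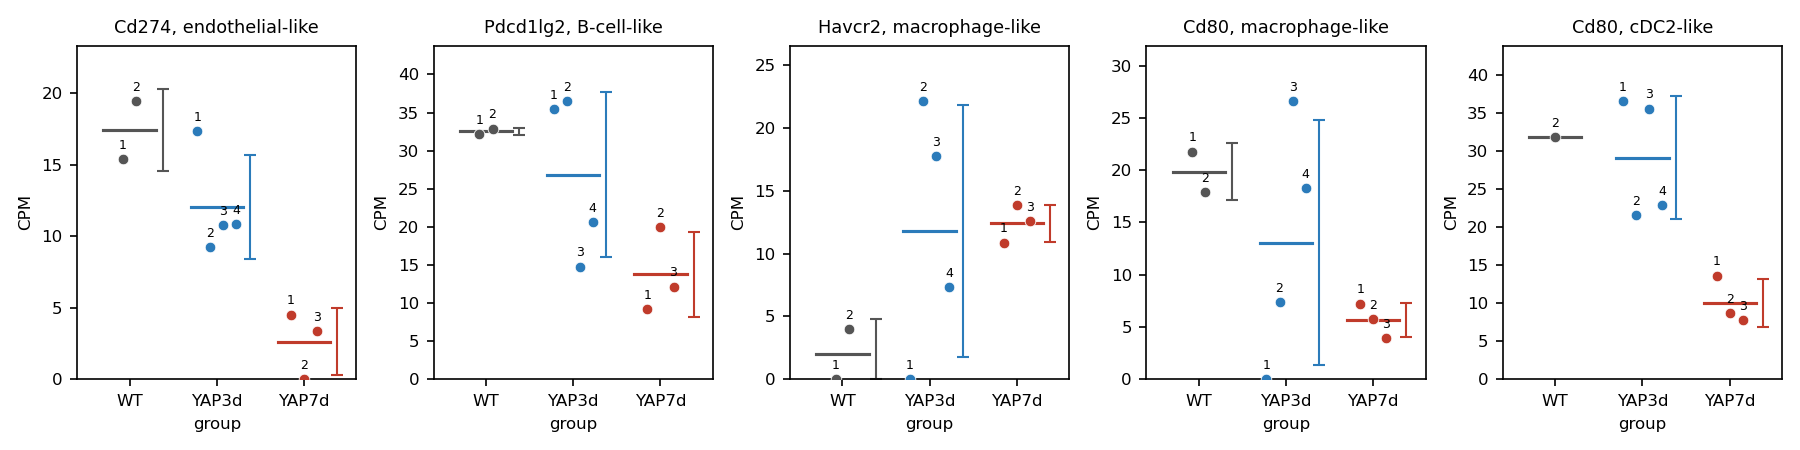
CPM by library of sparse members: Cd274 in endothelial-like cells, Pdcd1lg2 in B-cell-like cells, Havcr2 and Cd80 in macrophage-like cells and Cd80 in cDC2-like cells. Points are libraries with at least 10 cells of the class, numbered by replicate, lines are group means and bars SD; in cDC2-like cells WT has 1 library. Cd274, with YAP7d between 0 and 4.52 CPM, and Cd80 in cDC2-like cells, with YAP7d between 7.75 and 13.6 CPM, show no overlap between YAP7d and YAP3d.

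In macrophage-like cells, which include the resident Kupffer cells, the receptor Havcr2 was read at 0 and 3.98 CPM in WT, 0, 22.1, 17.8 and 7.32 in YAP3d and 10.9, 13.8 and 12.6 in YAP7d. All YAP7d libraries were above both WT libraries, 12.4 ± 1.49 against 1.99 ± 2.81 CPM (exact permutation p = 0.1, the smallest possible), and inside the YAP3d range (exact permutation p = 0.943). The WT value rests on 2 UMIs, in 31 and 65 cells. In WT 1, with 0 UMIs, the limit of 3 counts lies at 32.7 CPM, above all YAP7d values. Beside these levels, the share of macrophage-like cells in cluster 21 was 9.68% and 12.3% in WT, 8.33% to 20% in YAP3d and 35.4%, 30.6% and 64.8% in YAP7d. Havcr2 stood at 18.8 CPM in that cluster and 5.94 CPM in cluster 15. Within cluster 15 alone Havcr2 was at 0 and 2.37 CPM in WT and 5.49, 9.12 and 4.83 in YAP7d, so the groups again did not overlap. Classical-monocyte markers summed to 850 to 1174 CPM in WT macrophage-like cells and to 1390 to 2340 in YAP7d, and their part in the Havcr2 values was not tested.

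The costimulatory ligands of macrophage-like cells were not called. Cd80 was at 21.8 and 17.9 CPM in WT, 0, 7.38, 26.6 and 18.3 in YAP3d and 7.24, 5.76 and 3.94 in YAP7d. Its log2 fold change was -1.83 ± 0.75 for YAP7d against WT (edgeR adjusted p = 0.200) and -1.32 ± 0.62 against YAP3d (edgeR adjusted p = 0.387). With a Gm10709 term these shrank to -0.09 and -0.20. Cd86 was at 174 and 247 CPM in WT, 125 to 216 in YAP3d and 149, 186 and 135 in YAP7d, with a log2 fold change of -0.53 ± 0.31 (edgeR adjusted p = 0.381). Cd274 at 32.7 and 23.9 CPM in WT and 7.24, 15 and 25 in YAP7d gave -0.66 (0.697), and Lgals9 gave -0.09. The share of all 6610 tested genes called by edgeR was 1.48% between YAP7d and WT, 0% between YAP3d and WT (285 genes at an unadjusted p below 0.05) and 0.378% between YAP7d and YAP3d. Of 9 other ligands 2 were lower against WT, Clec4g (-3.53) and Siglece (-1.37), and the chemokine Cxcl9 was lower as well (-3.33).

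In cDC2-like cells, the class that primes CD4 T cells, Cd80 was at 36.6, 21.6, 35.6 and 22.9 CPM in YAP3d 1 to 4 and 13.6, 8.69 and 7.75 in YAP7d 1 to 3, without overlap (29.2 ± 8.04 against 10.02 ± 3.16 CPM; exact permutation p = 0.0286, the smallest possible). The only WT library with at least 10 such cells, WT 2, stood at 31.9 CPM. These levels rest on 2, 4, 5 and 16 UMIs in YAP3d and 7, 1 and 15 in YAP7d. In classical-monocyte-like cells Cd80 was at 15.5 ± 2.25 CPM in 2 YAP3d libraries and 2.83 ± 2.85 in 3 YAP7d libraries, again without overlap (exact permutation p = 0.1, the smallest possible). WT 2 lay between them at 8.11 CPM, from 2 UMIs in 31 cells. In patrolling-monocyte-like cells Cd80 was at 12.3 ± 6.78 CPM in 2 YAP3d libraries and 10.9 ± 6.04 in 3 YAP7d libraries, which overlapped (exact permutation p = 0.8). In the same class Cd86 was at 109 ± 7.57 CPM in YAP3d and 62.1 ± 41.4 in YAP7d without overlap (exact permutation p = 0.2, where 0.1 is the smallest possible), with WT 2 at 98.3 CPM. Pdcd1lg2 there was at 4.72 ± 1.37 and 2.40 ± 2.08 CPM, also without overlap (exact permutation p = 0.4), on 2 and 1 UMIs in the YAP3d libraries and 2, 0 and 12 in the YAP7d libraries. None of these tests was corrected for the 88 that were run. In separate edgeR fits of cDC2-like, classical-monocyte-like, patrolling-monocyte-like and hepatocyte-like cells between YAP7d and YAP3d, added after the values were seen, Cd80 was too sparse to be tested, and Cd86, Lgals9, Havcr2 and Cd274 gave 0 calls and 0 unadjusted p below 0.05.

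With all cells of a library summed, a different set of members differed, and in such sums fewer cells of a type and less RNA per cell cannot be told apart. Of 8 members tested, 2 were called between YAP7d and WT, 0 between YAP3d and WT and 2 between YAP7d and YAP3d, beside 18.1%, 0% and 16.5% of all 12071 genes. Cd86 and Pdcd1lg2 made up both pairs. At an unadjusted p below 0.05 there were 3, 1 and 4 members, and DESeq2 called 3, 0 and 3. The median log2 fold change of the 8 was 0.01, 0.07 and -0.24, against -0.02, 0.03 and -0.07 for all genes, and each pair of calls held 1 gene that was higher and 1 that was lower. For YAP3d against WT edgeR called 0 genes of any kind, with 358 at an unadjusted p below 0.05.

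Cd86 was higher over all cells after 7 days. It was at 36.5 and 48.7 CPM in WT, 45.0, 71.4, 23.5 and 55.0 in YAP3d and 87.7, 129 and 83.9 in YAP7d, where each YAP7d library exceeded every other library. The log2 fold change was 1.37 ± 0.40 against WT (edgeR adjusted p = 0.0410) and 1.15 ± 0.32 against YAP3d (edgeR adjusted p = 0.0366). In the same libraries macrophage-like cells rose from 5.95% and 4.59% of cells in WT and 3.18% to 11.3% in YAP3d to 24.0%, 45.3% and 22.6% in YAP7d. They held 32.8% of the Cd86 UMIs in WT, 20.6% in YAP3d and 66.4% in YAP7d. Within these cells Cd86 was not called, as given above. The part of the macrophage-like share in the Cd86 result was not tested. Among libraries high in Gm42418 Cd86 was at 36.5 CPM in WT and a mean of 108 in YAP7d, and among those low in it at 48.7 and 83.9, a smaller difference. The call of Cd86 against WT was kept in 10 of 19 alternatives, and in 3 of the 9 that left out 1 library. Among others it was lost without YAP3d 1 (edgeR adjusted p = 0.0634), YAP7d 1 (0.0575), YAP7d 2 (0.0988) or YAP7d 3 (0.0759) and with a Gm10709 term (0.636). It was also lost without WT 1 or WT 2, which leaves 1 WT library. The direction was kept in each.

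**Figure D5:**
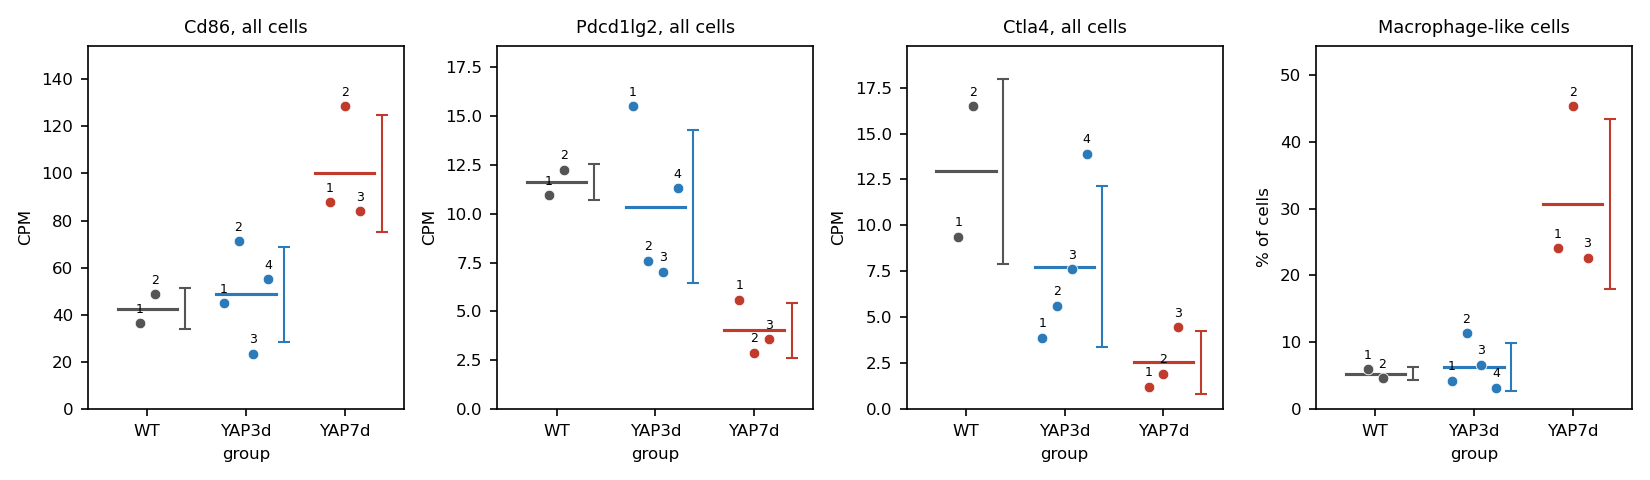
Cd86, Pdcd1lg2 and Ctla4 as CPM over all cells of a library, and macrophage-like cells as a percent of the library. Points are the 9 libraries numbered by replicate, lines are group means and bars SD; Cd86 and the macrophage-like share are higher and Pdcd1lg2 is lower in all 3 YAP7d libraries than in any other library.

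Pdcd1lg2 was lower over all cells. It was at 10.96 and 12.3 CPM in WT, 15.5, 7.6, 7.04 and 11.3 in YAP3d and 5.6, 2.88 and 3.59 in YAP7d, again with no overlap between YAP7d and the others. The log2 fold changes were -1.36 ± 0.38 against WT (edgeR adjusted p = 0.0335) and -1.19 ± 0.33 against YAP3d (0.0371). T-cell-like cells were 19.4% and 25.4% of cells in WT and 16.2%, 12.6% and 12.8% in YAP7d. Their makeup also differed, with cluster 2, led by Il4, Cxcr6 and Cd40lg, at 48.0% of the pooled T-cell-like cells in WT, 48.1% in YAP3d and 25.7% in YAP7d, and the part of this in the Pdcd1lg2 result was not tested. The B-cell-like share overlapped between libraries, at 7.87% and 14.6% in WT and 5.34%, 11.7% and 2.67% in YAP7d, and its part in the result was not tested. Of the Pdcd1lg2 UMIs, 46.8% came from T-cell-like and 27.0% from B-cell-like cells in WT, and 29.1% and 5.97% in YAP7d, where NK-cell-like cells gave 38.1%. The call of Pdcd1lg2 against WT was kept in 13 of 19 alternatives, and in 5 of the 9 that left out 1 library. Among others it was lost without YAP7d 2 (edgeR adjusted p = 0.0842) or YAP7d 3 (0.0740) and with a Gm10709 term (0.459). It was also lost without WT 1 or WT 2, which leaves 1 WT library. The direction was again the same. Calls of both genes against YAP3d were lost without most single libraries.

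Ctla4 over all cells was at 9.39 and 16.5 CPM in WT, 3.88, 5.62, 7.63 and 13.9 in YAP3d and 1.23, 1.92 and 4.47 in YAP7d. The YAP7d values lay below both WT values, with a log2 fold change of -2.01 ± 0.63 that did not pass the test (edgeR adjusted p = 0.0511), and overlapped YAP3d. It stayed uncalled in 10 of 19 alternatives and was called in the other 9: by DESeq2 (adjusted p = 0.0242) and by edgeR with a replicate block (0.00772), a term for the Gm42418 library sets (0.00910), library totals in place of TMM (0.0281), no filter on low counts (0.0348) or the 2 groups alone (0.0412), and without YAP3d 2 (0.0406), YAP3d 4 (0.0353) or YAP7d 3 (0.0262). The change shrank to -1.47 without WT 2 (edgeR adjusted p = 0.318) and to -0.75 with a Gm10709 term (0.823). Within the libraries high in Gm42418 Ctla4 averaged 9.39 CPM in WT, 5.71 in YAP3d and 1.57 in YAP7d, and within those low in it 16.5, 13.9 and 4.47, so YAP7d was below YAP3d in both sets. A term for these sets called it against YAP3d (-1.57, edgeR adjusted p = 0.0130, against 0.113 without the term). Havcr2 was at 13 and 8.45 CPM in WT, 10.1 to 39.6 in YAP3d and 21.9, 16.3 and 15.1 in YAP7d (0.94 against WT, edgeR adjusted p = 0.198). Lgals9 was at 117 and 149, 102 to 115 and 124 to 151 CPM (0.45 ± 0.15 for YAP7d against YAP3d, edgeR adjusted p = 0.0711). It stayed uncalled there in 17 of 19 alternatives, but a term for the Gm42418 library sets called it. Log2 fold changes against WT were -0.08 for Lag3 (edgeR adjusted p = 0.885), 0.06 for Cd80 (0.936) and -0.04 for Cd274 (0.955). The largest source of Cd274 UMIs was the endothelial-like cells in WT, with 33.1%, and the macrophage-like cells in YAP7d, with 44.1%.

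The other checkpoint lists over all cells are read beside the 18.1% of all genes called between YAP7d and WT and the 16.5% between YAP7d and YAP3d. Of 10 costimulatory receptors tested, 6 were lower and 0 higher between YAP7d and WT, with a median log2 fold change of -1.59. The 6 are receptors of T cells, namely Cd40lg (-2.31), Tnfrsf25 (-1.70), Cd27 (-1.64), Cd28 (-1.63), Icos (-1.55) and Cd2 (-1.18). Of 17 other ligands 4 were higher, among them Lgals3 (2.65), Tnfsf9 (1.74) and Sirpa (1.40), genes of myeloid cells, and 2 were lower, Clec4g (-4.96) and Pvrl2 (-1.72). Of 10 other coinhibitory receptors 2 were higher, Lair1 (2.05 ± 0.57, edgeR adjusted p = 0.0328) and the ectoenzyme gene Entpd1 (1.41), and 2 lower, Cd160 (-1.53) and Cd96 (-1.16). Of 12 interferon-gamma pathway genes 1 was higher, the receptor chain Ifngr1 (1.08), and 4 lower, led by the chemokines Cxcl9 (-2.78) and Cxcl10 (-1.85). Of 16 exhaustion and activation factors 3 were lower, Tox2 (-3.21), Maf (-1.87) and Tcf7 (-0.98), a share close to that of all genes. Against YAP3d, 8 of 10 costimulatory receptors, 3 of 10 coinhibitory receptors, 3 of 16 exhaustion factors and 3 of 12 interferon-gamma pathway genes were lower, and none of these lists had a gene that was higher. Cell shares differed between these libraries, as given for Cd86 and Pdcd1lg2, and their part in these sums was not tested.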

How the data were processed

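The deposited table holds UMI counts per gene and cell of all 9 libraries, made by the authors with Cell Ranger against mm10 from 3′ libraries, per the labels and the study's methods; a cell's library was read from the prefix of its barcode. Cells with under 200 genes were removed. Cells were clustered (scanpy 1.11.5: 2410 variable genes, 30 components, 15 neighbours, Leiden resolution 1; the members and cell-cycle genes left out) and named by marker lists, with at least 3 markers raised; 22 cells stayed unnamed, and 60 predicted doublets (0.704%) were kept in the main analysis. "X-like" names are rebuilt and may differ from the study's.

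Counts were summed per library and class (at least 10 cells) and tested with edgeR 4.0.16 (TMM, filterByExpr, quasi-likelihood test, all 3 groups in 1 fit, Benjamini-Hochberg over all genes, called below 0.05), with DESeq2 1.42.0 as an alternative. Genes left out by the filter with at least 10 UMIs in a class had two-sided exact permutation tests on the difference of mean CPM. SE is that of the log2 fold change. The scripts were tested on simulated data. Precision is limited by the total count per library, which ranged from 1314878 to 25056881 UMIs. RefSeq GRCm38.p6 gave positions, and 22794 of 27998 symbols matched.

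Replicate numbers did not pair the libraries, since correlations of deviations between same-numbered libraries ranged from -0.293 to 0.241. Members named with values are all 10; other genes are those called in the fixed lists, at most 5 in each direction per list. The members and lists were chosen with earlier results of these data known.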

Additional observations from a re-analysis of the deposited data

Results flagged for a closer look

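Of 43 groups of 4 YAP3d libraries tested for a value far from the others, 5 had one, and chance alone gives such a value in about 1 in 20 groups. In 4 of the 5 it was YAP3d 2. Pdcd1 was at 23.5 CPM over all cells of that library, with the next highest YAP3d library at 1.99, and at 118 CPM in its T-cell-like cells, with the next at 7.91. Lag3 was at 26.8 CPM over all its cells (next 17.1) and Cd80 at 10.9 CPM (next 5.43). The fifth was Ctla4 in B-cell-like cells of YAP3d 4, at 19.0 CPM, with the other YAP3d libraries at 0 counts, where the limit of 3 counts is 22.1 to 27.4 CPM, so that these do not exclude a level of 19.0. YAP3d 4 is the YAP3d library low in Gm42418.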

How the results depend on the processing

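Within cell classes, where 1 gene was called between YAP7d and WT, DESeq2 called 0, a Gm10709 term 0 and single clusters in place of classes 0, while no filter on low counts called 2 and a fit of only the 2 groups 2, both times Lag3 in NK-cell-like and Cd274 in endothelial-like cells. Leaving out 1 library gave between 0 and 2, with 0 without WT 2. Between YAP3d and WT (0 called), no filter gave 2, Pdcd1 and Lag3 in T-cell-like cells, and a replicate block 1, Lag3 there (adjusted p = 0.0454); the numbers do not pair the libraries. Between YAP7d and YAP3d (1 called), no filter gave 3, a Gm10709 term 0 and single clusters 0, and leaving out 1 library always gave 1.

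Over all cells, between YAP7d and WT (2 called), stricter cells (500 or more genes, no more than 10% of counts mitochondrial) gave 1 and a Gm10709 term 0, and leaving out 1 library gave 0 to 3. Between YAP7d and YAP3d (2 called), library totals with no TMM gave 1, no filter 1, only the 2 groups 0, the replicate block 1, the stricter cells 1, a term for the Gm42418 sets 4 (Ctla4 and Lgals9 added) and a Gm10709 term 0, and leaving out 1 library gave 0 to 2. Between YAP3d and WT all 19 alternatives gave 0. Cd86 in macrophage-like cells turned to 0.040 (YAP7d against WT) with a Gm10709 term. With that term YAP7d, where all libraries had Gm10709, is tied to WT, where none had, only through the YAP3d libraries; the cause of the other changes was not tested.

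Lag3 in NK-cell-like cells stayed lower in YAP7d than in WT in each of 21 alternative fits, between -2.15 and -1.79 (adjusted p 0.00303 to 0.326), and lower than in YAP3d in each of 22, between -1.78 and -1.47 (0.00217 to 0.0538). Over all cells Cd86 stayed between 0.89 and 1.66 and Pdcd1lg2 between -1.56 and -1.18 against WT in 19 alternatives each.

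Thinning cells to 2000 and 1000 UMIs lowered the share with a Lag3 UMI to 57.0% and 41.1% of plasmacytoid-dendritic-cell-like and 6.40% and 5.33% of NK-cell-like cells, with Havcr2 to 14.6% and 9.09% of cDC1-like, with Cd86 to 25.8% and 14.9% of macrophage-like, with Lgals9 to 52.8% and 26.5% of hepatocyte-like and with Pdcd1 to 2.06% and 1.38% of T-cell-like cells. Tigit, Pdcd1 and Cd80 had the fewest UMIs of the members, and WT libraries held no more than 65 macrophage-like and 80 NK-cell-like cells. The alternatives with a Gm42418 or Gm10709 term, single clusters and classes with 2 libraries in both groups were chosen after seeing the data.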
